A study of Homo sapiens with 8 samples.

Results

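The genes described here are TXNIP, its relatives ARRDC1, ARRDC2, ARRDC3 and ARRDC4 among the alpha-arrestins, the transcription factor partners MLXIP (MondoA) and MLX that act upstream of TXNIP and ARRDC4, and TXN, the thioredoxin that TXNIP binds. They were taken by name, as 8 of the 25435 gene rows of the count table, and TXNIP was singled out because it was lower in all 3 mutant groups than in GFP. For that reason its values against GFP are given below as a description without a test. All 8 genes passed the filter on low counts, which 13213 genes passed in all.

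The libraries came from HGC27, an established human gastric carcinoma line whose cells the labels describe as having no p53. The cells overexpressed p53 with the R175H substitution, which disturbs the fold of the DNA-binding domain, p53 with R248Q or R273H, which replace residues that touch DNA, or, per the sample titles, GFP as the control, so every group shared the absence of the cells' own p53 and culture in alpha-MEM. Each of the 4 groups had 2 libraries of messenger RNA reads counted per gene, and the vector, its promoter, whether the lines were clones and the culture time were not given in the sources used here. Nothing states that replicates were separate cultures, so p-values measure the spread between these libraries, which may be technical.

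Total counts were between 6800463 and 11788035 per library. In sum, 6 mesenchymal markers had 6485 to 7192 CPM (TMM-scaled counts-per-million values) over all libraries. Of these 6, 5 had a mean of at least 1 CPM in each group, and the sum does not show which carried it. By contrast, 5 epithelial markers summed to at most 3.68 CPM in any library, and the gastric markers TFF1, PGC and GKN1 had no count. GFP replicate 1 stood apart by transcript length: over 924 well-counted genes with transcripts of at least 8000 nt its median deviation from the mean of all libraries was -0.27 on the log2 scale, against -0.03 in GFP replicate 2, while over 983 genes under 1500 nt it was 0.17, against -0.03. R248Q deviated the other way in long transcripts, by 0.14 and 0.13. The part of this trend in a result was not tested except where values with the trend removed are given.

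Alpha-arrestins are adaptor proteins that bring ubiquitin ligases of the NEDD4 family to membrane proteins, which are then taken up into the cell. TXNIP, the thioredoxin-interacting protein, binds reduced thioredoxin and lowers glucose uptake by promoting the endocytosis of glucose transporters such as GLUT1, the product of SLC2A1. When phosphorylated glucose is plentiful, MondoA enters the nucleus in a heterodimer with MLX and activates TXNIP and ARRDC4 through a pair of E-boxes near their start sites, the carbohydrate response element. TXNIP is therefore widely used as a readout of glucose sensing in tumour cells.

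The promoter windows of TXNIP and ARRDC4, from 250 bases before to 50 bases after the annotated start site, are shown because these are the members known as MondoA targets and their levels moved to different extents. Sequences are from RefSeq on GRCh38.p14, printed 5′ to 3′ on the strand of the gene. All 8 members matched an entry there, with 11 windows in all. Capitals mark the E-box-like motif CACGNG and the CCAAT box, each on either strand. The TXNIP window is chr1:145996530-145996829 on the minus strand and the ARRDC4 window is chr15:97960453-97960752 on the plus strand.
TXNIP: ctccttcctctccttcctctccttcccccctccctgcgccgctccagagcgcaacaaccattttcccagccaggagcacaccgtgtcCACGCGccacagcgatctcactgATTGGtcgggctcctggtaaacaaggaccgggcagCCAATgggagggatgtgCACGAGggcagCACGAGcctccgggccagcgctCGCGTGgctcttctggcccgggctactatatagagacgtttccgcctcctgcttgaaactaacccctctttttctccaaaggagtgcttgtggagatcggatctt
ARRDC4: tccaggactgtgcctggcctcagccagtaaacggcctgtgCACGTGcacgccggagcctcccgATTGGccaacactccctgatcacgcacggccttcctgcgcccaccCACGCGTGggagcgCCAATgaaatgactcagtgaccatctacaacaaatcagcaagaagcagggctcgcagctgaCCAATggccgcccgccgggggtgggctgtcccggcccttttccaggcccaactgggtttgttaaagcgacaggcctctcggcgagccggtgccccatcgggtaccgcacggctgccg
In the TXNIP window, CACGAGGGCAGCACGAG, a pair of such motifs with 5 bases between them, began 88 bases before the start site. Such a pair, with each motif on either strand, was found in 27 of 35116 windows of the same length over all genes (0.0769%). Among the 11 member windows it was found in 1, that of TXNIP, so the ARRDC4 window held no pair at this spacing. The spacing was searched with the TXNIP element already known, so its presence there is no finding. ARRDC4 had the palindromic E-box CACGTG, which is also counted as CACGNG, 210 bases before its start site. MLX had the same hexamer 50 bases before its own start site, and 7.26% of all windows held it. The motif CACGNG stood in 6 of the 11 member windows, against 30.5% of all windows, and CCAAT in 7 of the 11, against 34.6%. CCAAT boxes began 140 and 105 bases before the start site of TXNIP and 187, 128 and 67 bases before that of ARRDC4. A match in these letters is not a site shown to be bound, and gene counts do not show which start site the cells used.

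TXNIP was lowest in R175H cells, intermediate in R248Q and R273H cells and highest in GFP cells, and the 3 levels did not overlap. It had 6.20 and 6.95 CPM in R175H, 21.5 and 21.4 CPM in R248Q, 22.9 and 20.1 CPM in R273H, and 32.6 and 30.6 CPM in GFP. The raw counts behind these values were 42 and 62 in R175H, 252 and 250 in R248Q, 257 and 235 in R273H, and 317 and 276 in GFP. The contact mutants R248Q and R273H overlapped each other in TXNIP and lay apart from R175H below them and from GFP above them.

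Against GFP, TXNIP was 4.77-fold lower in R175H (6.58 ± 0.54 CPM, against 31.6 ± 1.4 CPM in GFP, SD, n = 2 each), a log2 fold change of -2.25. That was the most negative of 12833 genes with a mean of at least 1 CPM. In R248Q it was 1.47-fold lower (21.4 ± 0.041 CPM, against the same 31.6 ± 1.4 CPM in GFP) and in R273H 1.47-fold lower (21.5 ± 2.0 CPM), with log2 fold changes of -0.56 and -0.56. TXNIP took rank 211 from the most negative in R248Q and rank 181 in R273H. The 3 comparisons share the GFP libraries. When each library was left out in turn, the log2 fold change of TXNIP against GFP ranged between -2.35 and -2.18 for R175H, -0.60 and -0.51 for R248Q, and -0.66 and -0.47 for R273H. In bulk RNA, fewer cells carrying a transcript and less of it per cell cannot be told apart.

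TXNIP was chosen on each mutant against GFP. The differences between mutants are other contrasts, but they use the same mutant libraries and were known when the gene was chosen, so the p-values here are no independent evidence. TXNIP was 3.23-fold higher in R248Q than in R175H (log2 1.69 ± 0.14, SE, edgeR quasi-likelihood test, Benjamini-Hochberg adjusted p = 1.48e-06) and 3.23-fold higher in R273H than in R175H (log2 1.69 ± 0.14, SE, adjusted p = 1.89e-06). Both calls held under every alternative tried, with log2 fold changes of 1.60 to 1.79. In R273H against R248Q the log2 fold change was -0.00, with a 95% interval of -0.21 to 0.21 (adjusted p = 1). Of the 7 members other than TXNIP, 2 were called in R248Q against R175H, where 7.17% of all tested genes were called. MLXIP was higher, as were 3.22% of all tested genes, and ARRDC3 was lower, as were 3.95%. In R273H against R175H 1 of these 7 was called, against 3.63% of all tested genes: ARRDC3 was lower, as were 2.22%. In R273H against R248Q edgeR called 0 of these 7, against 0.151% of all tested genes (0.00757% higher and 0.144% lower). DESeq2 and limma-voom also called 0 of them, and MLXIP alone had an unadjusted p under 0.05. MLXIP (-0.28) and TXN (0.15) were called in R273H against R248Q when only these groups were fitted (edgeR adjusted p = 3.33e-04 and 6.1e-04). Both calls were also gained when either GFP library was left out (-0.28 and 0.15). With the length trend removed MLXIP stood at -0.18 and TXN at 0.076, and neither was called (adjusted p = 0.386 and 0.738). With GFP replicate 1 left out as well the values were -0.18 and 0.076, again not called.

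**Figure D1:**
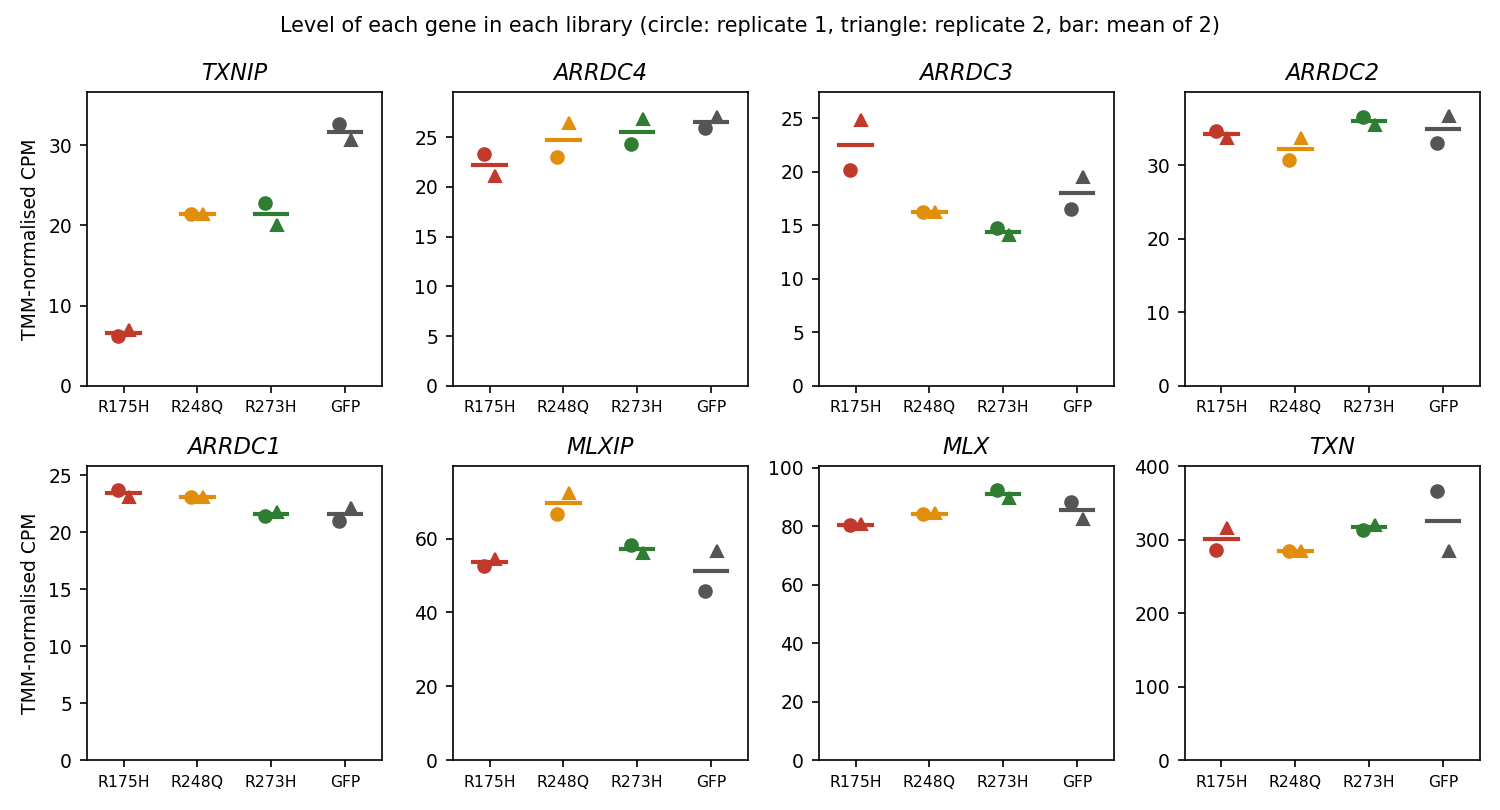
Level of the 8 genes in each of the 8 libraries, in TMM-normalised CPM on axes that start at 0, with R175H, R248Q, R273H and GFP from left to right. TXNIP shows 3 separate levels, with R175H at 6.20 and 6.95 CPM, whereas ARRDC4 spans 21.1 to 27.1 CPM over all libraries.

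Of the other 7 members, edgeR called 0 in R175H against GFP, where 11% of all tested genes were called, and 2 had an unadjusted p under 0.05 (ARRDC3 and ARRDC4). In R248Q against GFP 1 of the 7 was called (MLXIP, higher), against 6.32% of all tested genes. In R273H against GFP 0 were called, against 1.01% of all tested genes, and 1 had an unadjusted p under 0.05 (ARRDC3). Neither DESeq2 nor limma-voom called any of the 7 in R175H or R273H. Their median log2 fold changes were -0.03 for R175H, -0.10 for R248Q and 0.00 for R273H, against 0.01, -0.01 and -0.00 over all tested genes.

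ARRDC4, an alpha-arrestin that like TXNIP lowers glucose uptake, had 23.3 and 21.1 CPM in R175H, 23.0 and 26.4 CPM in R248Q, 24.3 and 26.8 CPM in R273H, and 25.9 and 27.1 CPM in GFP. The R175H libraries were below both GFP libraries, and those of the other mutants overlapped GFP. Its log2 fold change against GFP was -0.26 in R175H (95% interval -0.50 to -0.02, adjusted p = 0.152), -0.10 in R248Q (-0.32 to 0.12, adjusted p = 0.613) and -0.05 in R273H (-0.27 to 0.17, adjusted p = 0.879). These intervals are for a single gene and are not adjusted for the number of genes. In R175H the interval's lower end allows a fall of 0.50 on the log2 scale, whereas TXNIP had -2.25 in the same libraries. The ratio of TXNIP to ARRDC4 counts was 0.266 and 0.330 in R175H, 0.933 and 0.812 in R248Q, 0.941 and 0.748 in R273H, and 1.26 and 1.13 in GFP. The ratio lay at the same 3 levels as TXNIP, from which it is made.

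ARRDC3, which takes part in the trafficking of adrenergic receptors and integrins, was highest in R175H. It had 20.2 and 24.9 CPM in R175H, 16.3 and 16.3 CPM in R248Q, 14.8 and 14.1 CPM in R273H, and 16.5 and 19.5 CPM in GFP. Both R175H libraries lay above every other library, and those of R273H below every other. Against R175H, ARRDC3 fell by 0.48 on the log2 scale in R248Q (SE 0.12, adjusted p = 0.0258) and by 0.66 in R273H (SE 0.13, adjusted p = 0.00706). Against GFP no mutant was called, with log2 fold changes of 0.34 for R175H (95% interval 0.07 to 0.61, adjusted p = 0.0968), -0.14 for R248Q (-0.41 to 0.12, adjusted p = 0.533) and -0.32 for R273H (-0.59 to -0.05, adjusted p = 0.306). Without R175H replicate 2 the log2 fold changes were -0.31 in R248Q against R175H and -0.49 in R273H against R175H, and neither was called. The call of R248Q was also lost without either of its own libraries (-0.48 each) and with DESeq2 (-0.47, adjusted p = 0.13), and that of R273H without either of its own libraries (-0.69 and -0.62). The call of R175H against GFP was gained without GFP replicate 2 (0.46). Its antisense neighbour ARRDC3-AS1 had 1 to 10 counts per library, and the strand setting of the counting is not given in the sources used here.

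ARRDC1, which recruits the ESCRT machinery to release vesicles from the plasma membrane, had 23.8 and 23.1 CPM in R175H, 23.1 and 23.1 CPM in R248Q, 21.4 and 21.8 CPM in R273H, and 21.0 and 22.2 CPM in GFP. ARRDC2, another member of the family, had 34.7 and 33.8 CPM in R175H, 30.7 and 33.7 CPM in R248Q, 36.5 and 35.5 CPM in R273H, and 33.1 and 36.7 CPM in GFP. Neither was called in any of the 6 comparisons. The widest 95% intervals of their log2 fold changes against GFP were -0.10 to 0.33 for ARRDC1 and -0.23 to 0.17 for ARRDC2, both in R175H. ARRDC5, the remaining alpha-arrestin, had no count in any library, where 3 counts would be at most 0.441 CPM.

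MLXIP encodes MondoA, the glucose-sensing subunit of the heterodimer. It had 52.5 and 54.6 CPM in R175H, 66.7 and 72.4 CPM in R248Q, 58.3 and 56.2 CPM in R273H, and 45.8 and 56.8 CPM in GFP. Both R248Q libraries were above all others, and the GFP libraries spanned the values of R175H. MLXIP rose in R248Q by 0.44 ± 0.09 against GFP (log2, SE, adjusted p = 0.0069) and by 0.37 ± 0.09 against R175H (adjusted p = 0.0207). Its longest coding transcript has 8427 nt, in the length class in which GFP replicate 1 was low and R248Q high. With the length trend removed the log2 fold change against GFP was 0.22 and was not called (adjusted p = 0.0517), and without GFP replicate 1 it was 0.29 and still called. That call was also lost without R248Q replicate 2 (0.39), and the call against R175H was lost without any 1 library of R248Q or R175H (0.32 to 0.44). MLXIP was not called in R175H against GFP (0.07, 95% interval -0.14 to 0.27) or in R273H against GFP (0.16, -0.03 to 0.36). It was called in R273H against GFP without GFP replicate 2 (0.32).

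MLX, the partner through which MondoA binds DNA, had 80.3 and 80.8 CPM in R175H, 84.1 and 84.4 CPM in R248Q, 92.5 and 89.6 CPM in R273H, and 88.2 and 82.6 CPM in GFP. No comparison called it, and its 95% intervals against GFP lay between -0.23 and 0.23 on the log2 scale. In R273H against R175H its log2 fold change was 0.18 (adjusted p = 0.17), which was called without either GFP library (0.18 each). MLXIPL, which encodes ChREBP, the relative of MondoA in liver and fat, had 2 to 10 counts per library and did not pass the filter.

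TXN, which reduces disulphides in other proteins and is held inactive by TXNIP, had 286 and 316 CPM in R175H, 285 and 285 CPM in R248Q, 314 and 320 CPM in R273H, and 367 and 285 CPM in GFP. GFP replicate 1 was above all other libraries, and GFP replicate 2 was among the lowest. TXN is short, with 869 nt, in the length class in which GFP replicate 1 was high. It was not called against GFP in R175H (log2 -0.11, adjusted p = 0.442), R248Q (-0.19, adjusted p = 0.19) or R273H (-0.04, adjusted p = 0.881). Without GFP replicate 2 it was called lower in all 3 mutants (-0.28, -0.36 and -0.21), and without GFP replicate 1 in none (0.08, -0.002 and 0.15). It was also called in R248Q with no filter beyond 1 count (-0.19, adjusted p = 0.0252). The sign of TXN in R175H and R273H therefore depended on which GFP library was used.

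**Figure D2:**
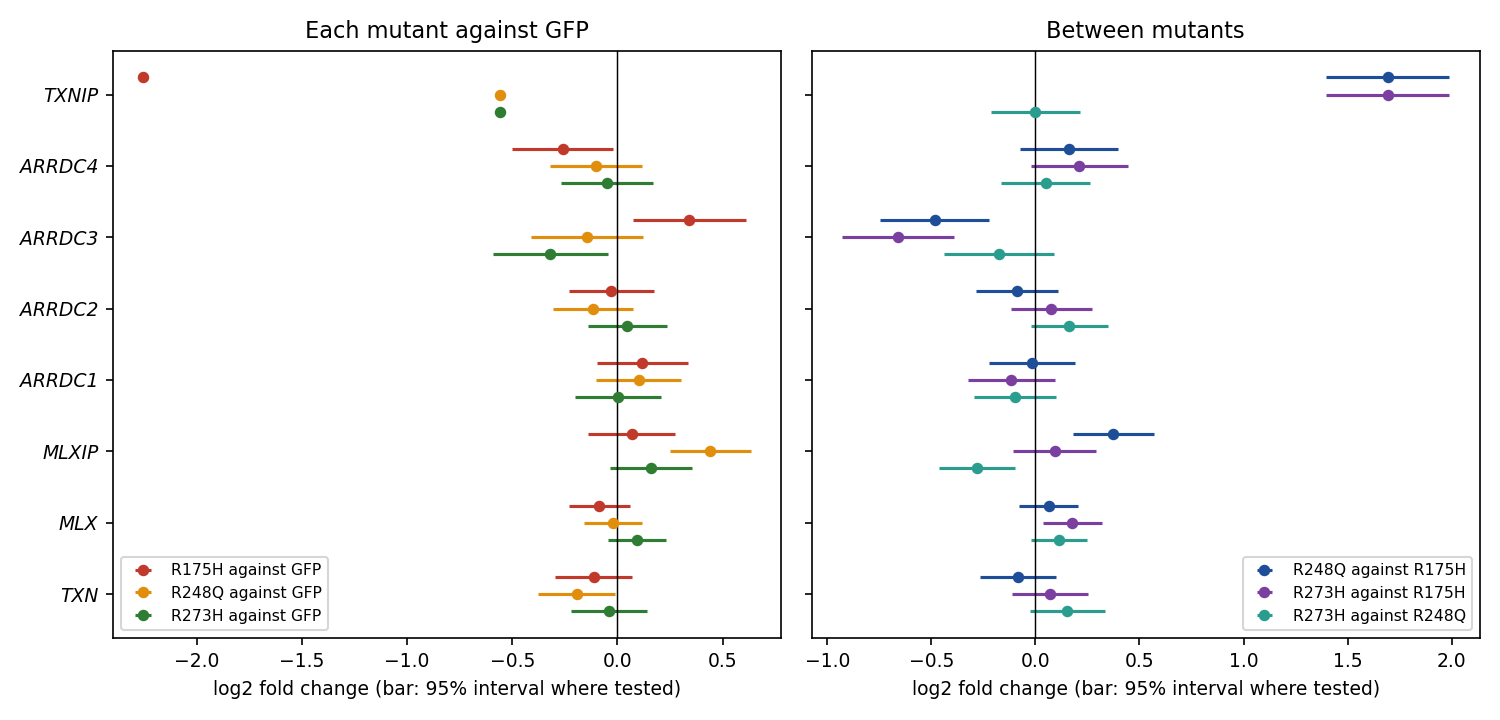
Log2 fold changes of the 8 genes, each mutant against GFP on the left and mutant against mutant on the right, with bars for the 95% interval of a single gene where a test was made. TXNIP lies at -2.25 in R175H and at -0.56 in both other mutants, and at 1.69 in both contact mutants against R175H, whereas the intervals of ARRDC1, ARRDC2 and MLX against GFP all include 0.

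Levels of different genes were compared per kb of the longest coding transcript, in CPM per kb. In GFP cells TXN was highest at 375 ± 66 CPM per kb, followed by MLX at 33.0 ± 1.5, ARRDC2 at 13.8 ± 1.0, ARRDC1 at 13.6 ± 0.54, TXNIP at 10.8 ± 0.48, ARRDC4 at 6.50 ± 0.20, MLXIP at 6.09 ± 0.92 and ARRDC3 at 4.31 ± 0.50 (SD, n = 2). ARRDC2 and ARRDC1 did not differ beyond their spread in this order, nor did ARRDC4 and MLXIP. In R175H cells TXNIP was the lowest of the 8 at 2.25 ± 0.18 CPM per kb, below ARRDC3 at 5.39 ± 0.79 and ARRDC4 at 5.45 ± 0.39. In R248Q cells TXNIP stood at 7.33 ± 0.014 CPM per kb, between MLXIP at 8.25 ± 0.48 and ARRDC4 at 6.07 ± 0.59. In R273H cells it stood at 7.33 ± 0.67, next to MLXIP at 6.79 ± 0.18, within their spread.

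**Figure D3:**
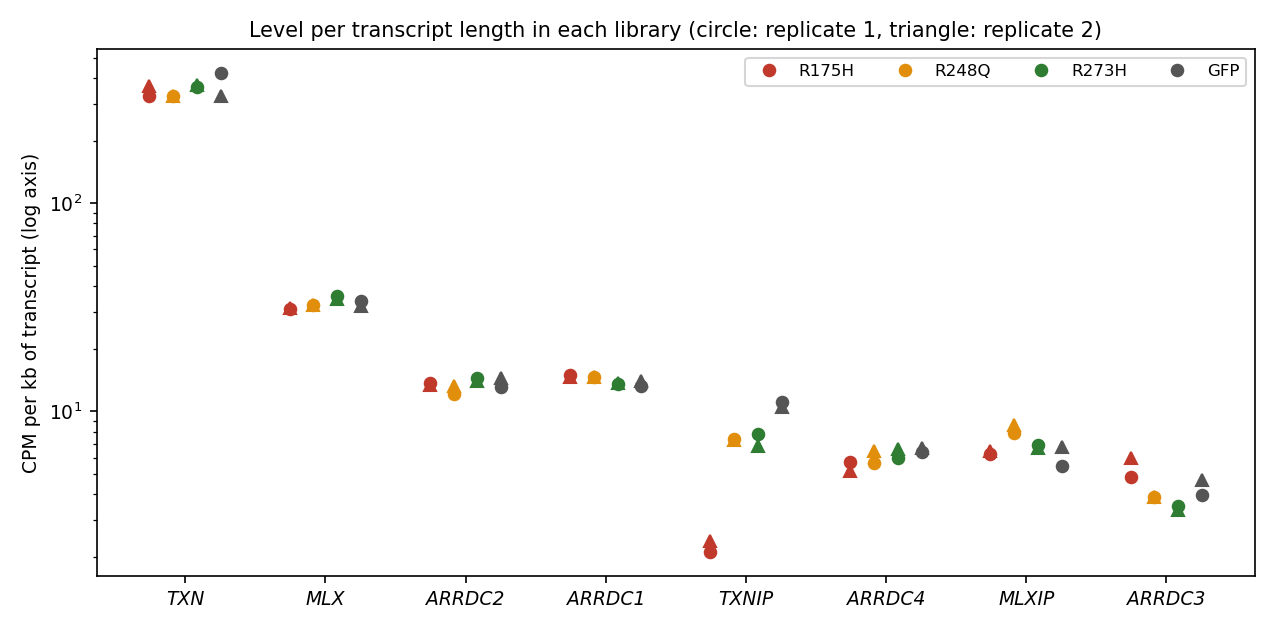
Level of the 8 genes in CPM per kb of the longest coding transcript, on a log axis, in each library of R175H, R248Q, R273H and GFP, with genes ordered by their mean in GFP. TXNIP lies below all other members in R175H, at a mean of 2.25 CPM per kb.

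The pathway around the members was read from lists of genes set by function. Of 14 tested genes known as targets of ChREBP or MondoA, ARRDC4 among them and TXNIP not, 5 were called in R175H against GFP, all higher, where 6.39% of all tested genes rose and 4.59% fell. In R248Q 4 were called, all higher, against 4.88% and 1.44% of all tested genes, and in R273H 2, both higher, against 0.757% and 0.25%. The list's median log2 fold change was 0.19 in R175H, 0.05 in R248Q and 0.12 in R273H. The balance of calls over all genes moved with the length trend: with it removed 1019 genes were called higher and 1170 lower in R175H, where 844 and 607 were otherwise, 419 and 449 in R248Q, where 645 and 190 were otherwise, and 205 and 129 in R273H, where 100 and 33 were otherwise.

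The glycolytic regulator PFKFB3 had 99.5 and 101 CPM in R175H, 70.5 and 72.5 CPM in R248Q, 75.1 and 76.2 CPM in R273H, and 66.5 and 72.3 CPM in GFP. It rose in R175H (log2 0.53 ± 0.07, SE, adjusted p = 1.55e-04) and was not called in R248Q (0.04) or R273H (0.13). The desaturase SCD rose in R175H (0.62 ± 0.05), R248Q (0.23 ± 0.05) and R273H (0.24 ± 0.05), and the fatty acid synthase FASN likewise (0.45 ± 0.08, 0.50 ± 0.08 and 0.35 ± 0.08). ACACA, the carboxylase that commits acetyl-CoA to fatty acids, rose in R248Q (0.49 ± 0.07) and was not called in R175H (0.22) or R273H (0.30). FASN and ACACA have transcripts of 8565 and 9961 nt. The calls of PFKFB3 in R175H, of SCD in R175H, of FASN in R175H and R248Q and of ACACA in R248Q held under every alternative tried, but the sizes in the longer transcripts did not. With the length trend removed ACACA in R248Q was at 0.21, and FASN was at 0.28 in R248Q and 0.23 in R273H. Without GFP replicate 1 FASN was at 0.29 in R175H and 0.19 in R273H. With both changes ACACA in R248Q was at 0.19, and FASN was at 0.26 in R175H, 0.23 in R248Q and 0.17 in R273H. The SCD call in R248Q was lost without either R248Q library (0.25 and 0.23), and its value was 0.16 with the length trend removed and 0.13 with GFP replicate 1 out as well. The SCD and FASN calls in R273H were each lost without any 1 library of R175H, R248Q or R273H (0.23 to 0.26 for SCD, 0.32 to 0.38 for FASN). Both were also lost with library size alone, with only the groups compared and with replicate number as a block.

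Among the other partners and rivals of MLX and MAX, 4 of 9 tested genes were called in R175H, all higher, and 1 of 9 in R248Q and in R273H, in both cases MGA, a scaffold that pairs with MAX, and again higher. Of all tested genes 6.39% were higher in R175H, 4.88% in R248Q and 0.757% in R273H. The list's median log2 fold change was 0.24 for R175H, 0.04 for R248Q and 0.06 for R273H, against 0.01, -0.01 and -0.00 over all tested genes. MXI1, a repressor that competes with MYC for MAX, had 38.2 and 37.9 CPM in R175H, 21.99 and 25.7 CPM in R248Q, 22.4 and 21.1 CPM in R273H, and 22.1 and 19.6 CPM in GFP. It rose in R175H (log2 0.86 ± 0.11, SE, adjusted p = 8.64e-05), and the values of R248Q and of R273H each overlapped those of GFP. MXD4, a repressor of the same family, rose in R175H (0.36 ± 0.06), and so did MYC (0.24 ± 0.05), whose call was lost without R175H replicate 1 (0.23) or replicate 2 (0.26). MGA, with a transcript of 14439 nt, rose by 0.66 ± 0.09 in R175H, 0.96 ± 0.08 in R248Q and 0.57 ± 0.09 in R273H, the last not called without R273H replicate 1 (0.47). With the length trend removed these values were 0.43 in R175H, 0.53 in R248Q and 0.35 in R273H, all still called.

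Genes of glucose entry and phosphorylation, which supply the signal that MondoA senses, were called in R175H in 4 of 9 tested cases, all higher (SLC2A1, HK2, SLC2A3 and SLC2A4), against 6.39% of all tested genes. Their median log2 fold change was 0.09 in R175H, 0.04 in R248Q and 0.09 in R273H. The transporter gene SLC2A1, whose product TXNIP removes from the cell surface, had 188 and 187 CPM in R175H, 92.1 and 96.9 CPM in R248Q, 103 and 102 CPM in R273H, and 88.2 and 95.7 CPM in GFP. It rose by 1.03 ± 0.06 in R175H (log2, SE, adjusted p = 6.57e-08), with both R175H libraries far above the other 6. The hexokinase HK2 had 217 and 219 CPM in R175H, 147 and 141 CPM in R248Q, 140 and 141 CPM in R273H, and 115 and 131 CPM in GFP, a rise of 0.83 ± 0.07 in R175H (adjusted p = 7.82e-07). SLC2A3, another glucose transporter, rose by 0.86 ± 0.15 in R175H and was not called in R248Q (0.25) or R273H (0.16). In R248Q 1 of the 9 rose (HK2, 0.23 ± 0.07, lost without any 1 library other than GFP replicate 2, at 0.14 to 0.26, and with the length trend removed, at 0.13) and 1 fell (HK1, by 0.36, lost without either R248Q library, at -0.35 and -0.37). Of all tested genes 4.88% were higher and 1.44% lower in R248Q. In R273H edgeR, DESeq2 and limma-voom called 0 of 9, where edgeR called 1.01% of all tested genes, and 3 had an edgeR unadjusted p under 0.05. Against R175H, both R248Q and R273H had 4 of the 9 lower (HK2, SLC2A1, HK1 and SLC2A3), against 3.95% of all tested genes in R248Q and 2.22% in R273H.

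In the thioredoxin and glutaredoxin system the calls against GFP among 19 tested genes were lower in the mutant, 2 in R175H and 2 in R248Q, where 4.59% and 1.44% of all tested genes were lower. The median log2 fold change was -0.09 for R175H, -0.12 for R248Q and -0.03 for R273H. In R175H these were SRXN1, which repairs overoxidised peroxiredoxins (by 0.32, adjusted p = 0.0241), and the membrane thioredoxin TMX1 (by 0.21, adjusted p = 0.0453), and in R248Q TMX1 (by 0.22, adjusted p = 0.0476) and the peroxiredoxin PRDX4 (by 0.24, adjusted p = 0.0299). DESeq2 called 1 of the 19 in R175H and 0 in R248Q, and limma-voom 2 in each. The SRXN1 call was lost without R175H replicate 2 (-0.20) and with only the groups compared (-0.32). The other 3 calls were each lost without any 1 library other than GFP replicate 2, with log2 fold changes between -0.27 and -0.18, and PRDX4 was at -0.10 with the length trend removed. These 3 calls were also lost with DESeq2, with only the groups compared and with replicate number as a block. In R273H edgeR, DESeq2 and limma-voom called 0 of 19, where edgeR called 1.01% of all tested genes, and 0 had an edgeR unadjusted p under 0.05. Between mutants, 1 of the 19 was called in R248Q against R175H, where 3.22% of all tested genes were higher. It was TXNRD1, which regenerates reduced thioredoxin (higher, log2 0.21, edgeR adjusted p = 0.04). In R273H against R175H 1 was called, SRXN1 (higher, log2 0.31, adjusted p = 0.0482), where 1.41% of all tested genes were higher. DESeq2 called 0 of the 19 in these 2 comparisons and limma-voom 1 in each.

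The ligases through which alpha-arrestins work were not called against GFP, nor were other relatives of the arrestins. Of all tested genes 11% were called in R175H, 6.32% in R248Q and 1.01% in R273H, so lists this short would hold few calls. Of 8 tested NEDD4 family ligases edgeR called 0 in each mutant against GFP, and 2, 0 and 1 had an unadjusted p under 0.05 in R175H, R248Q and R273H. Of 5 tested beta-arrestin and VPS26 type genes it called 0 in each, with 1, 0 and 0 at an unadjusted p under 0.05. Of 7 tested genes, STK11 and subunits of AMPK, the kinase that marks TXNIP for degradation, it called 0 in each, with 2, 1 and 0. Between mutants edgeR called 1 of these 7, PRKAG1, lower in R248Q than in R175H, where 3.95% of all tested genes were lower. DESeq2 called 0 of the 7 there. Neither DESeq2 nor limma-voom called any gene of these 3 lists against GFP. Their median log2 fold changes in R175H, R248Q and R273H were 0.01, 0.04 and 0.10 for the ligases, -0.03, -0.04 and 0.01 for the arrestin relatives, and 0.08, 0.06 and 0.02 for the AMPK subunits with STK11. DDIT4, an inhibitor of mTORC1 that forms a complex with TXNIP, had 1383 and 1392 CPM in R175H, 576 and 588 CPM in R248Q, 641 and 678 CPM in R273H, and 505 and 513 CPM in GFP. It rose by 1.45 ± 0.05 in R175H (log2, SE, adjusted p = 6.78e-11), 0.19 ± 0.05 in R248Q (adjusted p = 0.0321) and 0.37 ± 0.05 in R273H (adjusted p = 0.00305). The R248Q call was lost without any 1 library of R175H, R248Q or R273H (0.18 to 0.21), and the R273H call without R273H replicate 2 (0.33). DDIT4 was the only call among 3 tested genes for proteins that bind TXNIP. Of all tested genes 6.39% were higher in R175H, 4.88% in R248Q and 0.757% in R273H. The median log2 fold change of the 3 was -0.16 for R175H, -0.02 for R248Q and -0.18 for R273H. The inflammasome genes NLRP3, PYCARD, CASP1 and IL1B had at most 5 counts in any library.

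The genes whose profile over the 8 libraries came closest to that of TXNIP were found by the root mean square difference between log2 CPM profiles, each centred on its own mean, over 11817 genes with a mean of at least 1 CPM, passing over antisense, readthrough and placeholder names. A flat profile would stand 0.84 from TXNIP on this scale. The nearest were DKK2 (0.24), a secreted modulator of Wnt signalling, TNNC1 (0.37), FKBP1B (0.37), AP1M2 (0.39) and PTX4 (0.43), none of which passed 3.49 CPM in any library. DKK2 had 0.443 and 0.336 CPM in R175H, 1.19 and 1.20 CPM in R248Q, 1.69 and 1.37 CPM in R273H, and 1.64 and 2.00 CPM in GFP. Of genes with the mirrored profile, the nearest were NDRG1 (0.13) and MIR210HG (0.18), the transcript that holds the microRNA miR-210, both closer than DKK2, followed by PFKFB4 (0.26), NDUFA4L2 (0.28) and PDK1 (0.29), a kinase that holds pyruvate dehydrogenase inactive. NDRG1 had 44.6 and 45.3 CPM in R175H, 12.3 and 14.1 CPM in R248Q, 11.6 and 13.1 CPM in R273H, and 9.77 and 10.6 CPM in GFP. As in TXNIP, with the order reversed, R175H lay far from the rest in NDRG1. The contact mutants lay between R175H and GFP and overlapped each other. NDRG1 was not called in either of them against GFP (edgeR adjusted p = 0.113 in R248Q and 0.415 in R273H). PFKFB4, a regulator of glycolysis, had 35.0 and 34.3 CPM in R175H, 13.3 and 15.2 CPM in R248Q, 16.4 and 13.7 CPM in R273H, and 11.5 and 10.5 CPM in GFP. It was not called in R248Q or R273H against GFP either (edgeR adjusted p = 0.118 and 0.157). In MIR210HG, NDUFA4L2 and PDK1 the contact mutants overlapped GFP. NDUFA4L2, for example, had 42.4 and 44.1 CPM in R248Q, 42.9 and 43.6 CPM in R273H, and 50.3 and 41.1 CPM in GFP. These genes were picked from the same libraries for this likeness, which is therefore a description.

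**Figure D4:**
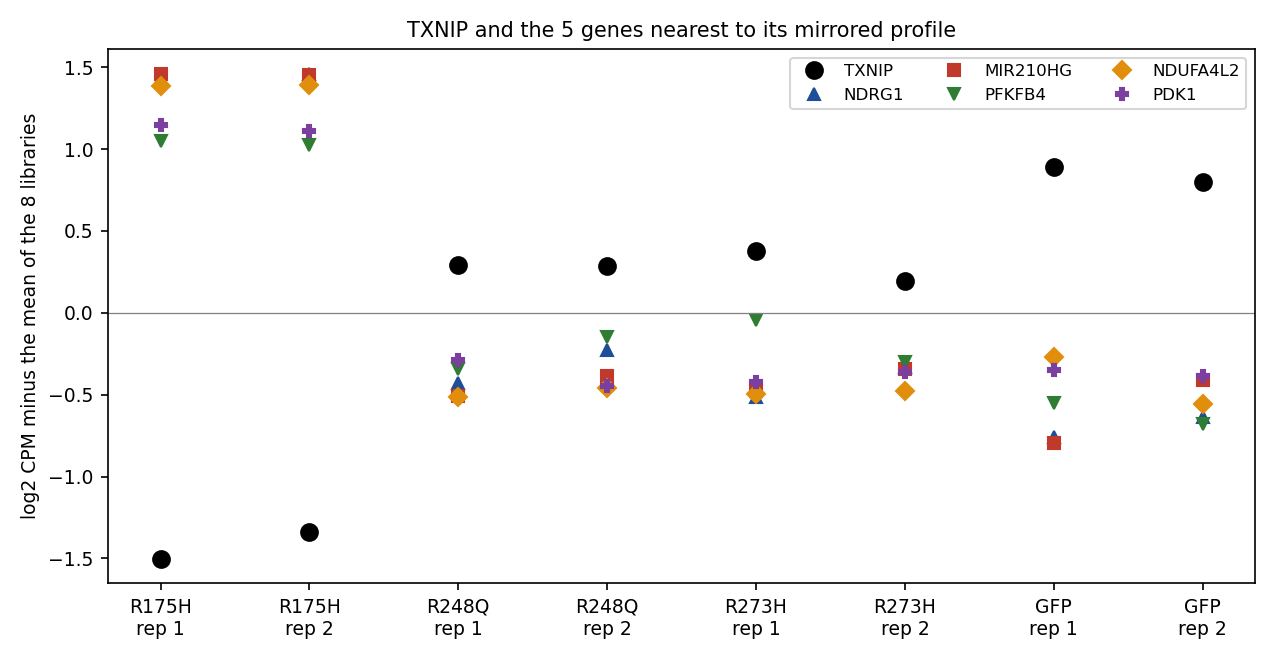
Log2 CPM of TXNIP and of the 5 genes nearest to its mirrored profile, each minus its own mean over the 8 libraries, by library of R175H, R248Q, R273H and GFP, with NDRG1 partly under MIR210HG. TXNIP is lowest and the others highest in both R175H libraries, and NDRG1 comes nearest to the mirror image, at a root mean square difference of 0.13.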

How the data were processed

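Per the labels, messenger RNA libraries were made with a Kapa kit from HGC27 cells, and per the submitters' processing notes the authors used bcl2fastq and STAR 2.5 with the hg19 build. The authors deposited whole-number read counts for each gene, not normalised, while the counting step, annotation and strand setting were not given in the sources used here.

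Counts were fitted in R 4.3.3 with edgeR 4.0.16: filterByExpr with a minimum count of 10, TMM scaling (factors 0.989 to 1.01), 1 mean per group over all 8 libraries, and a quasi-likelihood test with 4 residual degrees of freedom, adjusted by Benjamini-Hochberg over 13213 genes and called below 0.05. SE is the absolute log2 fold change over the square root of F. The fit was tested on simulated data. Replicates differed by chi-square per degree of freedom of 1.21 to 5.72, so none was a duplicate. Members and lists were chosen with earlier results of these data known. Named list genes were, per list, up to 4 genes called against GFP with the lowest p. TXNRD1 and PRKAG1 are named besides for calls between mutants. Alternatives included DESeq2 1.42.0 and limma-voom 3.58.1. Transcript lengths are from GENCODE 29, matched by symbol for 97.2% of tested genes, and the length trend was a loess (span 0.3) per library entered as an offset. A check of the labels is not reported here. Figures were drawn with matplotlib 3.10.9.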

Additional observations from a re-analysis of the deposited data

How the results depend on the processing

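Depth limited the lowest values most, with 42 and 62 TXNIP counts in R175H against 317 and 276 in GFP, and with 2 libraries a group 1 library could decide a call. Some calls of members moved with the processing, as given above. The counts of genes called moved as well, and the cause was not tested. In R175H against GFP they were 1451 in the reported fit, 827 with DESeq2, 538 with only the groups compared, 2189 with the length trend removed, and 463 to 3392 when a library was left out. In R248Q against GFP they were 835, and 1439 without the filter, 482 with DESeq2, 391 with only the groups compared, 495 with the length trend removed and GFP replicate 1 left out, and 226 to 3447 when a library was left out. In R273H against GFP they were 133, and 503 without the filter, 6 with only the groups compared, 334 with the trend removed, 287 with the trend and GFP replicate 1 out, and 8 to 2258 when a library was left out. In R248Q against R175H they were 947, and 534 with DESeq2, 2573 with only the groups compared, 1599 with the trend removed, 2433 with the trend and GFP replicate 1 out, and 231 to 2435. In R273H against R175H they were 479, and 759 without the filter, 285 with DESeq2, 1354 with only the groups compared, 1136 with the trend removed, 1958 with the trend and GFP replicate 1 out, and 117 to 1640. In R273H against R248Q they were 20, and 176 without the filter, 816 with only the groups compared, 40 with the trend removed, 309 with the trend and GFP replicate 1 out, and 0 to 574. Removing the trend together with GFP replicate 1 was chosen after seeing the data. The replicate numbers did not pair the libraries: deviations of same-numbered libraries correlated between -0.24 and 0.07 over the group pairs. With replicate number as a block, 538 genes were called in R248Q against GFP, 58 in R273H against GFP, 318 in R273H against R175H and 4 in R273H against R248Q. No call of the 8 members was lost under that block, but HK2 and DDIT4 in R248Q against GFP were no longer called. With only the groups compared, calls against GFP were also lost for MYC in R175H, SCD, HK2 and DDIT4 in R248Q, and MGA and DDIT4 in R273H. The HK2 call in R248Q was lost with DESeq2 and with library size alone too.

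TXNIP had log2 fold changes of -2.35 to -2.18 in R175H against GFP and of -0.60 to -0.51 in R248Q against GFP when a library was left out, and -0.48 in R248Q with the trend and GFP replicate 1 out. In R273H against R248Q it changed sign around 0, at 0.0015 without the filter and -0.0996 to 0.092 when a library was left out. The other changes of sign were in values not called in the reported fit. With the trend removed, MLXIP in R175H against GFP was at -0.063, MLX in R248Q against GFP at 0.035, TXN in R273H against GFP at 0.037 and ARRDC1 in R248Q against R175H at 0.0496. With GFP replicate 1 out as well, these 4 stood at -0.11, 0.058, 0.12 and 0.0504, TXN at 0.054 in R175H and 0.0396 in R248Q against GFP, and ARRDC1, ARRDC2 and MLXIP in R273H against GFP at -0.047, -0.032 and -0.0017. ARRDC1 in R273H against GFP was at -0.0012 with DESeq2 size factors, -0.0083 with library size alone and -0.0017 with DESeq2, and in R248Q against R175H at 0.0027 with library size alone. Leaving out 1 library at a time gave ranges across 0, against GFP, for ARRDC2 in R175H (-0.10 to 0.046) and R273H (-0.027 to 0.12), MLXIP in R175H (-0.0804 to 0.23), TXN in R175H (-0.28 to 0.083) and R273H (-0.21 to 0.15), MLX in R248Q (-0.067 to 0.028), ARRDC1 in R273H (-0.038 to 0.043) and ARRDC4 in R273H (-0.12 to 0.019). It did so between mutants for ARRDC1 in R248Q against R175H (-0.0402 to 2e-04) and ARRDC4 in R273H against R248Q (-0.0496 to 0.15).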

Other observations

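In all 27 genes had a promoter window with a pair of CACGNG motifs 5 bases apart, a set defined by sequence after the data had been seen. Of these, 16 were tested, TXNIP among them. Without TXNIP, 2 of 15 were called in R175H against GFP, where 11% of all tested genes were called and 6.39% were higher. Both were higher: P4HA1 (log2 0.64 ± 0.06, SE), a collagen prolyl hydroxylase, and RCN3 (0.94 ± 0.25, SE). In R248Q and R273H against GFP 0 of the 15 were called, against 6.32% and 1.01% of all tested genes. The median log2 fold change of the 15 was -0.05 for R175H, -0.06 for R248Q and -0.07 for R273H, against 0.01, -0.01 and -0.00 over all tested genes. HES1, a transcriptional repressor named here after its values were seen, stood lowest of the 15 in R175H at -0.68 (edgeR adjusted p = 0.059).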
